A study of Mus musculus with 4 samples.

Results

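The BTG/Tob family is a small group of antiproliferative genes, and 5 of them were examined in a mouse hepatoma line with lowered Chd1: Btg1, Btg2, Btg3, Tob1 and Tob2. They are 5 of the 23521 genes into which the deposited transcript values were summed, and all 5 were matched. The libraries came from Hepa1-6 cells, a mouse hepatoma line grown in DMEM with 10% serum. The Chd1KD group (n = 2) received lentivirus carrying an shRNA against Chd1, an ATP-dependent chromatin remodeler, and the Control group (n = 2), whose genotype is labelled wild type, received lentivirus carrying a scrambled shRNA. Both groups then spent 3 weeks in puromycin at 4 μg/ml before poly(A) RNA was sequenced. Whether replicate libraries stem from separate transductions is not stated, so any p-value reflects library-to-library spread alone, possibly technical. The family was selected on RPKM values of this same contrast, Chd1KD against Control, in an earlier look at the libraries. The members' values below are therefore a description and carry no test.

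BTG/Tob proteins share an N-terminal domain with which they bind the CAF1 deadenylases of the CCR4-NOT complex, the main machine that shortens the poly(A) tails of mRNA. Through it they speed the decay of messages, and their forced expression slows entry into S phase in many cell types. Btg1 and Btg2 also bind the arginine methyltransferase Prmt1, Btg3 (also called ANA) binds the transcription factor E2F1, and the longer Tob proteins bind the poly(A)-binding protein and Smads. Btg2 is a classic early response gene and a target of p53, and human BTG3 is also a p53 target.

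Promoter sequence is shown for the members whose groups did not overlap, since these differ in the elements that their start regions hold. Each line gives 300 bases, from 250 before to 50 after a RefSeq start (GRCm38.p6, the assembly behind mm10), read 5′ to 3′ on the gene's strand. Btg3 is at chr16:78376761-78377060 (minus strand), Btg2 at chr1:134079106-134079405 (minus strand) and Btg1 at chr10:96616751-96617050 (plus strand). Capitals mark the cAMP response element TGACGTCA and its core TGACG, the CCAAT box and the TATA box TATAAA, each on either strand, and the core also lies within the full element. Positions are counted from the start, which is 0.
Btg3: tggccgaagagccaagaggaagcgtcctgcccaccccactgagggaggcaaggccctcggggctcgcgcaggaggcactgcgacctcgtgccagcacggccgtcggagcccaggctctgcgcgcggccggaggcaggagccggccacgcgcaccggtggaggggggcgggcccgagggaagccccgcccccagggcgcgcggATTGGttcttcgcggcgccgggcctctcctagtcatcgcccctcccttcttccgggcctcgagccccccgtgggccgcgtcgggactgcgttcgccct
Btg2: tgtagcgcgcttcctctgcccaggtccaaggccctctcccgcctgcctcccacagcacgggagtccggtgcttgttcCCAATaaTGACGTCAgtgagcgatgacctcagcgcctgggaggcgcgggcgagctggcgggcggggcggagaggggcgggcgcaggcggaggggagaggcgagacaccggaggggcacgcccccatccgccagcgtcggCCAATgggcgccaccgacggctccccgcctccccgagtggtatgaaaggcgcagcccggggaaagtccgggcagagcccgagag
Btg1: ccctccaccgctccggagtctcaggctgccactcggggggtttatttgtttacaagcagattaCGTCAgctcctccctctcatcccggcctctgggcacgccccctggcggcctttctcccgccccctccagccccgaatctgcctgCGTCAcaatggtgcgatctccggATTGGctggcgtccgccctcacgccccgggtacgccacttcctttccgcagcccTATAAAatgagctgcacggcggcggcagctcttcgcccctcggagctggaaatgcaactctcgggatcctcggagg

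The Btg3 window held a single CCAAT box and neither a TATA box nor the TGACG core. The Btg2 window held the full TGACGTCA element from position -166 to -159 relative to the start, next to 1 CCAAT box, with a further CCAAT box from -34 to -30. Of all 32851 promoter windows in the same table, 1.79% held TGACGTCA and 37.4% held CCAAT. The Btg1 window held the TGACG core at 2 places, a CCAAT box, a TATA box from -26 to -21 and the FoxO motif TGTTTAC from -204 to -198. The core was found in 20.8% of all windows, TATAAA in 13.6% and TGTTTAC in 3.65%. Tob1 also held the core and a TATA box, while Tob2 held neither of these nor CCAAT. The SP1 motif GGGCGG was found in a window of each of the 5 genes and in 35.7% of all windows. The E-box CACGTG (7.15% of all windows) and the E2F motifs TTTCCCGC and TTTGGCGC (1.56%) were in none of the members' 6 windows. Neither was the p53 decamer, searched by exact match to its consensus (8.36%), and an imperfect p53 site would be missed by this search. Such a match or its absence describes these letters and says nothing of binding.

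Btg3 has a second annotated start 371 bases upstream, and the table's 2 windows for it differed. The window printed above had 75.7% G and C and an observed-to-expected CpG ratio of 0.862, against 57.7% and 0.361 in the upstream one. The medians of all windows were 52.7% and 0.384. The windows of Btg1, Btg2, Tob1 and Tob2 had 58.0% to 75.3% G and C and CpG ratios of 0.711 to 1.02. The deposited table lists 1 Btg3 transcript, and the sources used here do not say from which start its reads came.

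The measured transcripts also differ in build. In GENCODE M21 the Btg3 transcript has 5 exons and 1414 bases, and each of the other 4 has 2 exons, with lengths from 2288 bases (Tob1) to 5001 bases (Btg1). The coding part spans 474 bases in Btg2, 513 in Btg1, 756 in Btg3, 1035 in Tob2 and 1086 in Tob1. The 3′ UTR of Btg3, at 439 bases, is the shortest of the 5, and it held the pentamer ATTTA, the core of AU-rich decay elements, 4 times. The comparison took the longest 3′ UTR of each mouse gene. Of the 1755 such 3′ UTRs within 20% of the Btg3 length, 2.56% held at least as many. Btg1 held 11 in 4166 bases, Btg2 5 in 2199, Tob1 3 in 767 and Tob2 4 in 2457, and at least as many were found in 17.1% to 52.4% of 3′ UTRs of like length.

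Before the members, the target of the shRNA was checked. Chd1 measured 10.4 and 11.3 RPKM in Chd1KD, against 21.4 and 22.5 RPKM in Control. Chd1 fell in Chd1KD to 0.49 times its Control mean, by 0.96 on the log2 scale (limma, SE 0.07, adjusted p = 0.012). Summed RPKM was 459381 to 484490 per library and sequencing depth is unknown. Among the 10209 genes whose mean reached 1 RPKM, 47 were called (limma on log2(RPKM + 1), Benjamini-Hochberg adjusted p under 0.05). That count was 0 without the filter on low values (2153 genes at an unadjusted p under 0.05), and 121 without Chd1KD replicate 2, 218 without Control replicate 1 and 251 without Control replicate 2. Of 14 hepatocyte markers 10 reached a mean of 1 RPKM, among them Afp, Alb and Hnf4a, and 2 were listed at 0 in every library. Their sum, most of it Apoe, was 1037 and 1367 RPKM in Chd1KD and 1459 and 2331 RPKM in Control. Without Apoe the sum was 252 and 286 RPKM in Chd1KD and 237 and 309 RPKM in Control, which overlapped. Afp averaged 56.7 RPKM in Chd1KD and 34.8 RPKM in Control. Alb averaged 47.6 ± 7.6 RPKM in Chd1KD and 37.1 ± 26.2 RPKM in Control (SD, n = 2 each), and its groups overlapped. The Control libraries had 18.6 and 55.6 RPKM of Alb, the latter above both Chd1KD libraries. Summed cholangiocyte markers measured 160.1 and 164.3 RPKM in Chd1KD and 224.8 and 198.6 RPKM in Control. The part of these markers in the results below was not tested. Lymphocyte markers summed to at most 0.0691 RPKM in any library, with 8 of 9 listed at 0 in all. A mean of 1 RPKM was reached by 1 of 9 matched macrophage markers, 2 of 9 endothelial markers and 1 of 9 fibroblast markers. That fibroblast marker, Dcn, had 386 to 430.2 RPKM per library, and the other 8 summed to 0.954 to 1.26 RPKM.

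Btg3 was the most abundant member in every library and differed most between the groups. Its gene lies on chromosome 16 from 78359860 to 78377181 on the minus strand (GRCm38.p6). Btg3 mRNA stood at 48.2 and 50.1 RPKM in Chd1KD, against 27.1 and 25.7 RPKM in Control. Both Chd1KD libraries stood far above both Control libraries, and in bulk RNA more expressing cells and more RNA per cell cannot be told apart. The groups did not overlap, and the libraries of a group lay close together. The means were 49.1 ± 1.3 RPKM in Chd1KD and 26.4 ± 0.95 RPKM in Control (SD, n = 2 each), and their ratio was 1.86. On the log2(RPKM + 1) scale the difference was 0.87 with an SE of 0.06, the 10th highest of the 10209 tested genes. Any Chd1KD library set against any Control library gave a log2 difference between 0.81 and 0.94, while the libraries of a group differed by 0.055 in Chd1KD and 0.071 in Control.

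Btg2 was also higher in both Chd1KD libraries, with much more spread. The gene (chromosome 1 from 134074865 to 134079155, minus strand) measured 23.3 and 16.4 RPKM in Chd1KD, against 14.3 and 10.2 RPKM in Control. The groups did not overlap, but the lower Chd1KD library stood only 2.04 RPKM above the higher Control library. The means were 19.8 ± 4.9 RPKM in Chd1KD and 12.3 ± 2.9 RPKM in Control (SD, n = 2 each), a ratio of 1.62 and a log2 fold change of 0.65 with an SE of 0.19. In each group replicate 1 was the higher library, by 0.48 on the log2 scale in Chd1KD and 0.45 in Control. The median absolute difference over all tested genes was 0.068 in Chd1KD and 0.095 in Control. The fold change of Btg2 moved with the library left out. It was 0.41 without Chd1KD replicate 1 and 0.42 without Control replicate 2, and 0.89 without Chd1KD replicate 2 and 0.87 without Control replicate 1.

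**Figure D1:**
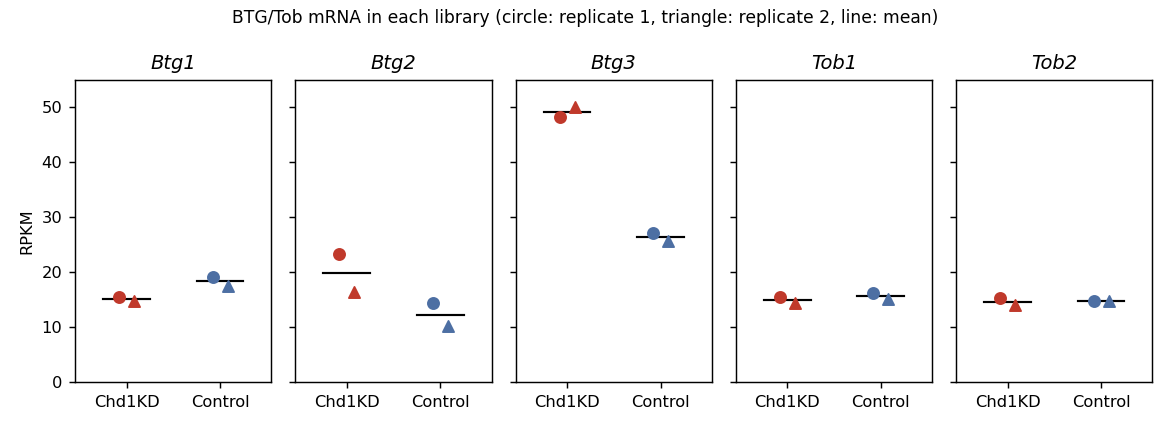
RPKM of the 5 BTG/Tob genes in each library, Chd1KD left of Control, with circles for replicate 1, triangles for replicate 2 and a line at the group mean (n = 2 each). Btg3 sits at 48.2 and 50.1 RPKM in Chd1KD and 27.1 and 25.7 RPKM in Control, Btg2 is spread within both groups, and the groups overlap for Tob1 and Tob2.

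**Figure D2:**
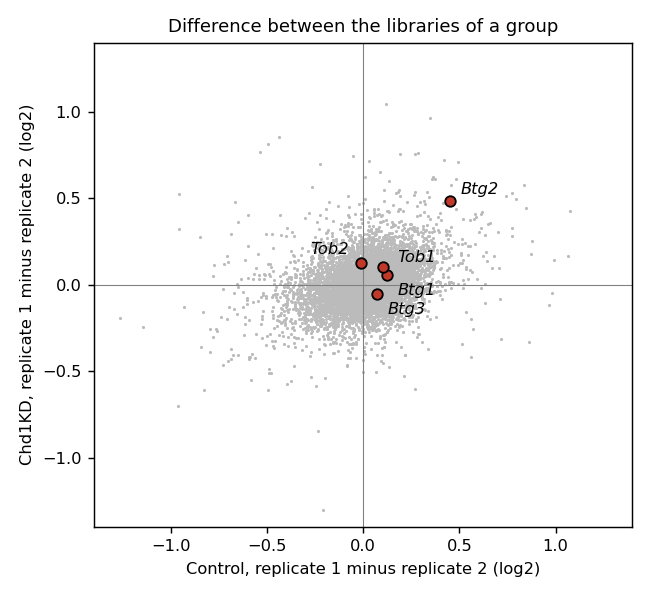
Difference between replicate 1 and replicate 2 on the log2(RPKM + 1) scale in Chd1KD (vertical axis) and in Control (horizontal axis) for the tested genes (grey) and the 5 members (red), with the genes beyond ±1.4 not drawn. Btg2 lies at 0.48 in Chd1KD and 0.45 in Control, away from the other members, none of which exceeds 0.13 in either group.

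Btg1, a broadly expressed member first found at a translocation in leukaemia, was lower in both Chd1KD libraries. On chromosome 10 from 96617001 to 96622813 (plus strand), it measured 15.4 and 14.8 RPKM in Chd1KD, against 19.2 and 17.5 RPKM in Control. Both Chd1KD libraries lay below both Control libraries. The means were 15.1 ± 0.43 RPKM in Chd1KD and 18.3 ± 1.2 RPKM in Control (SD, n = 2 each), a ratio of 0.82 and a log2 fold change of -0.27 with an SE of 0.07. Pairs of libraries across the groups differed by -0.35 to -0.18 on the log2 scale. Btg1b and Btg1c, X-linked copies of Btg1, were listed at 0 in all 4 libraries.

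The Tob genes, which encode the longer members of the family, had overlapping groups. Tob1 (chromosome 11 from 94209842 to 94215495, plus strand) measured 15.5 and 14.4 RPKM in Chd1KD, against 16.2 and 15.1 RPKM in Control. Tob2 (chromosome 15 from 81848270 to 81858326, minus strand) measured 15.3 and 13.9 RPKM in Chd1KD, against 14.7 and 14.8 RPKM in Control. In both genes the higher and lower libraries were mixed between the groups. The ratios were 0.96 for Tob1 and 0.99 for Tob2, with log2 fold changes of -0.06 and -0.01 and SEs of 0.07 for each. Tob2 changed sign, to 0.05, without Chd1KD replicate 2. Btg4, a relative known for its part in clearing maternal mRNA from the oocyte, had 0.033 RPKM in Chd1KD and 0.016 RPKM in Control on average and was below the filter.

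All 5 members passed the filter on low values, and each exceeded 10 RPKM in every library of both groups. In the fit over all genes 1 of the 5, Btg3, was called, where 0.46% of all tested genes were and 0.274% were called higher. The groups did not overlap for 3 of the 5, 2 higher and 1 lower in Chd1KD, where this held for 51.8% of tested genes (21.3% higher and 30.5% lower). The members' median log2 fold change was -0.01, beside -0.02 over all tested genes. Since the same contrast led to the choice of the family, nothing is read from these shares.

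The order of the levels, which RPKM gives per length, differed between the groups below Btg3. In both Chd1KD libraries Btg2 came next, and Btg1, Tob1 and Tob2 followed within 0.244 RPKM of each other in replicate 1 and 0.864 RPKM in replicate 2. These last genes do not differ beyond the spread between libraries there. In both Control libraries the order was Btg3, Btg1, Tob1, Tob2 and Btg2. In replicate 1 Tob2 had 14.7 RPKM and Btg2 14.3 RPKM, nearer to each other than the Control libraries of Btg2 were. Tob1 and Tob2 lay close together in Control, with means of 15.7 ± 0.83 and 14.7 ± 0.084 RPKM (SD, n = 2 each).

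Summed over the 5 genes, family mRNA measured 117.7 and 109.6 RPKM in Chd1KD, against 91.5 and 83.3 RPKM in Control. The groups did not overlap, and the means were 113.6 ± 5.7 RPKM in Chd1KD and 87.4 ± 5.8 RPKM in Control (SD, n = 2 each). Of the mean difference of 26.2 RPKM, Btg3 contributed 22.7 RPKM, Btg2 7.55 and Btg1 -3.26. Without Btg3 the sums were 69.5 and 59.5 RPKM in Chd1KD and 64.4 and 57.6 RPKM in Control, which overlapped. Btg3 made up 40.9% and 45.7% of the family sum in Chd1KD and 29.6% and 30.9% in Control. The share of Btg1 was 13.1% and 13.5% in Chd1KD, against 21.0% in both Control libraries.

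**Figure D3:**
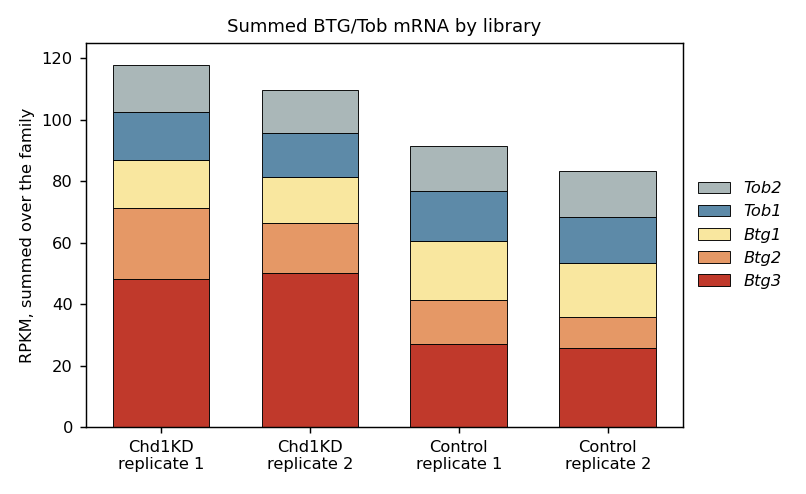
Stacked bars of RPKM summed over Btg3, Btg2, Btg1, Tob1 and Tob2 in each library, the Chd1KD libraries left of the Control libraries. The bars reach 117.7 and 109.6 RPKM in Chd1KD and 91.5 and 83.3 RPKM in Control, and the Btg3 segment accounts for most of the difference.

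The expressed neighbours of Btg3 differed less between the groups than Btg3 did. Cxadr, the coxsackie and adenovirus receptor, ends 74 bases from the 3′ end of Btg3 on the opposite strand in RefSeq, so these models do not overlap. The longer GENCODE gene spans share 27138 bases, introns included. No source used here states whether counting was stranded, so reads of a transcript of either gene that runs into the other could not be told apart. Cxadr measured 15.5 and 14.5 RPKM in Chd1KD, against 11.9 and 13.8 RPKM in Control, a ratio of 1.17 that was not called. D16Ertd472e, on the other side, had 1.85 ± 0.12 RPKM in Chd1KD and 1.67 ± 0.10 RPKM in Control (SD, n = 2 each), a ratio of 1.11. For Cxadr and D16Ertd472e the groups did not overlap and Chd1KD was higher, which held for 21.3% of all tested genes. The expressed neighbours of Btg2 were Tmem183a (ratio 1.14) and Zc3h11a (1.07), and those of Btg1 were Eea1 (1.02) and Dcn (0.95). Tob1 lies between Spag9 (1.13) and Luc7l3 (0.99), and Tob2 between Tef (0.91) and Phf5a (1.19). None of these 10 neighbours was called (limma). An unadjusted p under 0.05 was found for Cxadr, Tmem183a and Phf5a, 3 in all, where 18.5% of all tested genes had one.

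The tested genes nearest to Btg3 in profile, by Euclidean distance of centred log2(RPKM + 1) over the 4 libraries, were AA414768 (distance 0.079), the heme synthesis enzyme Cpox (0.17), Aldh1a7 (0.17), a noncoding transcript with no gene name (0.20) and Tmem63b (0.23). With 4 libraries such likeness mostly means a difference of like size between the groups. Aldh1a7 has a close paralog, Aldh1a1, with which it may share reads. AA414768 measured 14.7 and 14.8 RPKM in Chd1KD, against 8.31 and 7.75 RPKM in Control.

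**Figure D4:**
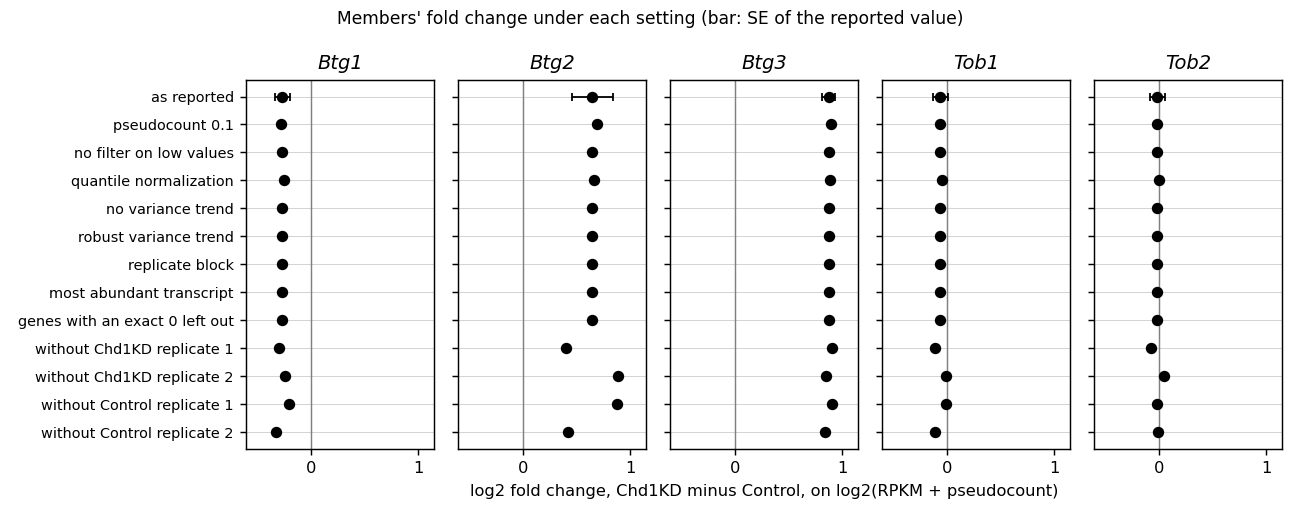
Log2 fold change (Chd1KD minus Control) of each member as reported and under 12 other settings, with the SE on the reported value. Btg3 stays between 0.84 and 0.91, Btg2 runs from 0.41 to 0.89, Btg1 stays below 0, and Tob1 and Tob2 lie near 0.

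The CCR4-NOT complex, through which the family acts on mRNA, was tested for all of its 12 listed genes and none was called (limma). An unadjusted p under 0.05 was found for 1 of the 12, where 18.5% of all tested genes had one. Its largest difference was in Cnot7, one of the CAF1 deadenylases that BTG/Tob proteins bind directly. Cnot7 measured 30.8 and 31.8 RPKM in Chd1KD, against 24.0 and 22.7 RPKM in Control, so the groups did not overlap. The means gave a ratio of 1.34, and the fit a difference of 0.41 with an SE of 0.06 on the log2 scale (limma, adjusted p = 0.054). With 1 library left out the log2 fold change of Cnot7 was 0.37 to 0.45. In the unfiltered fit Cnot7 was not called (limma, adjusted p = 0.25). Cnot8, the paralogous CAF1 deadenylase, had 27.2 and 27.9 RPKM in Chd1KD, against 27.6 and 26.7 RPKM in Control, a ratio of 1.01. The other 10 subunits had ratios from 0.90 (Cnot10, which binds the N-terminal part of the scaffold Cnot1) to 1.12 (Cnot6l, a CCR4-type deadenylase). The list's median log2 fold change was 0.06, beside -0.02 over all tested genes, and 0.03 without Control replicate 2.

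Of 22 tested genes for other deadenylation and decapping steps none was called (limma). An unadjusted p under 0.05 was found for 4, 2 in each direction, where 18.5% of all tested genes had one. Fold changes were positive for 11 and negative for 11, where 43.5% of all tested genes had a positive one. Zfp36l2, which brings CCR4-NOT to AU-rich messages, had a ratio of 0.81, with 23.4 and 24.3 RPKM in Chd1KD and 28.3 and 30.4 RPKM in Control. Cpeb4, a cytoplasmic polyadenylation element binding protein, had a ratio of 1.31, with 5.61 and 5.98 RPKM in Chd1KD and 4.13 and 4.73 RPKM in Control.

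Among 12 tested partner genes 1 was called, Skp2, where 0.186% of all tested genes were called lower. Skp2 is the F-box protein of a ubiquitin ligase that targets p27 and also Tob1. It fell to 19.8 RPKM in both Chd1KD libraries, against 36.9 and 35.2 RPKM in Control. The means stood at a ratio of 0.55, and Skp2 was lower by a fitted log2 difference of -0.83 (limma, SE 0.06, adjusted p = 0.012) and was not called in the unfiltered fit (limma, adjusted p = 0.25). The list's median was -0.06, and -0.02 without Control replicate 2. Prmt1 had 249.3 ± 6.5 RPKM in Chd1KD and 260.3 ± 23.6 RPKM in Control (SD, n = 2 each). E2f1, whose protein BTG3 binds in human cells, had 23.05 and 22.1 RPKM in Chd1KD and 26.6 and 24.4 RPKM in Control, a ratio of 0.89. Chek1, the checkpoint kinase that human BTG3 also binds, had a ratio of 0.84. Of the Tob-binding Smads, Smad1 averaged 15.7 RPKM in Chd1KD and 15.7 RPKM in Control, and the ratios were 1.07 for Smad4 and 1.03 for Smad5. Hoxb9, a partner of Btg1 and Btg2, was listed at 0 in all libraries.

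None of 12 factors upstream of the family was called (limma). An unadjusted p under 0.05 was found for 2, where 18.5% of all tested genes had one. Trp53 encodes p53 and had 149.1 and 141.5 RPKM in Chd1KD, against 177.8 and 165.4 RPKM in Control, a ratio of 0.85. E2f4, a mostly repressive E2F, had a ratio of 0.79 and a log2 fold change of -0.37 to -0.29 with 1 library left out. The FoxO factors, known to act on Btg1, had ratios of 1.01 for Foxo1 and 0.91 for Foxo3. Creb1, which binds cAMP response elements such as the one in the Btg2 window, had a ratio of 1.03, and Egr1 of 0.98.

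**Figure D5:**
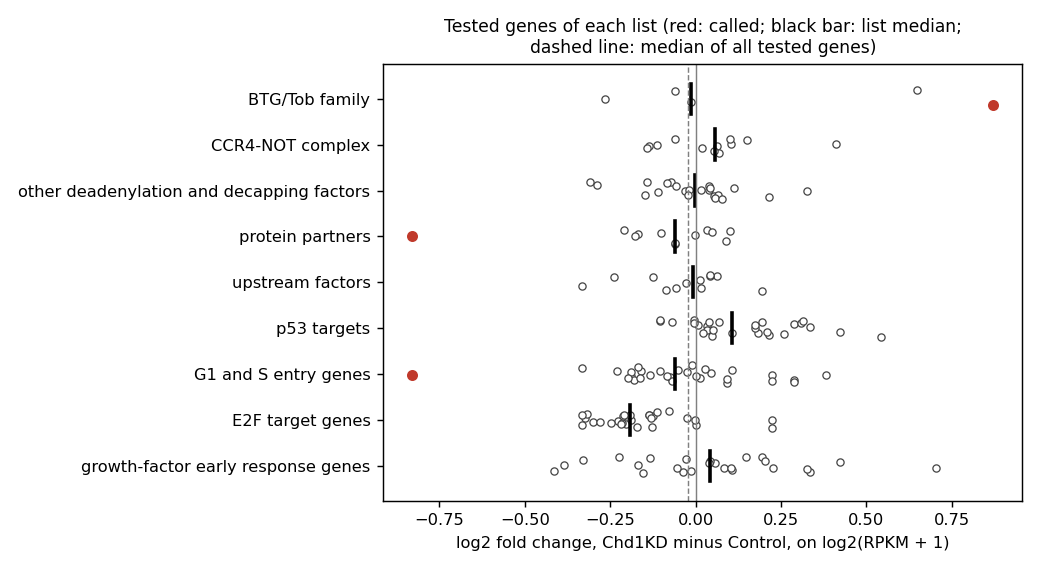
Log2 fold changes (Chd1KD minus Control, on log2(RPKM + 1)) of the tested genes of the family and of 8 lists around it, called genes in red, with each list's median as a bar and the median of all tested genes, -0.02, as a dashed line. The E2F targets lie mostly to the left (median -0.19), the p53 targets mostly to the right (median 0.11), and Skp2, which stands in 2 lists, is the only called gene outside the family.

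Of 27 tested p53 targets 22 had positive fold changes, where 43.5% of all tested genes had one. None was called (limma), and the list median was 0.11. All 6 with an unadjusted p under 0.05 were higher, where 7.24% of all tested genes were. Plk2, a polo-like kinase, had a ratio of 1.25 and Ccng1, cyclin G1, of 1.34. Ccng1 measured 192.8 and 169.4 RPKM in Chd1KD, against 147.8 and 122.6 RPKM in Control, with replicate 1 the higher library in each group, as in Btg2. With 1 library left out the log2 fold change was 0.26 to 0.37 for Plk2 and 0.29 to 0.56 for Ccng1. The list median was 0.21 without Control replicate 1 and 0.00094 without Control replicate 2.

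Of 28 tested E2F target genes 25 had negative and 3 positive fold changes, where 43.5% of all tested genes had a positive one. None was called (limma), and the list median was -0.19. The median was -0.11 without Control replicate 1. An unadjusted p under 0.05 was found for 2 higher and 15 lower genes, where 11.3% of all tested genes were lower by this measure. In 21 of the 28 the groups did not overlap and Chd1KD was lower, which held for 30.5% of all tested genes. Pold1, which encodes the large subunit of a replicative polymerase, and the licensing factor Cdt1 each had a ratio of 0.79. With 1 library left out the log2 fold change was -0.36 to -0.31 for Pold1 and -0.37 to -0.30 for Cdt1. Of 30 tested genes of G1 and S entry 1, Skp2, was called (limma), where 0.46% of all tested genes were, and the list median was -0.06. An unadjusted p under 0.05 was found for 4 higher and 8 lower genes of this list, where 18.5% of all tested genes passed.

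Of 25 tested early response genes, the class to which Btg2 belongs, none was called (limma). An unadjusted p under 0.05 was found for 7, 3 higher and 4 lower, where 18.5% of all tested genes had one. The list median of 0.04 turned to -0.05 without Chd1KD replicate 1 and to -0.02 without Control replicate 2. Atf3, a stress-induced factor, had 8.61 and 7.09 RPKM in Chd1KD, against 5.12 and 3.78 RPKM in Control, a ratio of 1.76. Its log2 fold change was 0.53 to 0.88 with 1 library left out. Fosl1, an AP-1 subunit, had a ratio of 0.76 and a log2 fold change of -0.45 to -0.32 with 1 library left out.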

How the data were processed

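Poly(A) RNA of 4 libraries was measured by sequencing, from 10 μg of total RNA each. The authors deposited RPKM values in 30582 rows of RefSeq transcripts, per the file headers. TopHat 1.4.1, Cufflinks 1.3.0 and mm10 appear in the submitters' processing notes. No source used here gives the annotation release, filters or strand setting. The 4 tables of single libraries equalled the columns of the series table. RPKM was summed per gene, with 29999 rows named through RefSeq (GRCm38.p6), 184 through GENCODE M21 and 399 left unnamed, which gave 23521 genes.

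The 10209 genes whose mean reached 1 RPKM were fitted by limma 3.58.1 (R 4.3.3). The scale was log2(RPKM + 1), with a variance trend and no block, in a script tested on simulated data. A log2(RPKM + 1) fold change understates the change of low genes. Ratios are of group mean RPKM. RPKM keeps no counts, so depth is unknown, no counting interval is given, and 2 libraries a group limit the precision.

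The members and the lists were chosen with earlier results of these data known. Named genes are the members and Btg4, Chd1, up to 4 called genes of each list or 2 with the smallest p where none was called, partners and upstream factors with a stated role, the 5 nearest profiles to Btg3, the nearest tested gene on each side of a member, and Actb, Gapdh and Tbp, which had ratios of 0.95, 0.87 and 0.98. Cnot6l, Btg1b and Btg1c were named after their values were seen. Of 257 list entries, 2 matched no gene and 2 matched by an older symbol. Promoter sequences are RefSeq's, and 3′ UTRs GENCODE's. Other settings were the pseudocount, filter, scaling, variance model, block, transcript choice, exact zeros and each library left out.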

Additional observations from a re-analysis of the deposited data

How the results depend on the processing

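Under 12 other settings Btg3, Btg2, Btg1 and Tob1 kept their signs, and Tob2 turned without Chd1KD replicate 2. The members were chosen on this contrast, so these values describe and support nothing. Btg3 lay between 0.84 and 0.91. Leaving out 1 library gave -0.33 to -0.20 for Btg1, 0.41 to 0.89 for Btg2, -0.11 to -0.0092 for Tob1 and -0.08 to 0.05 for Tob2.

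The number of called genes was 0 without the filter, 6 without a variance trend, 92 with a robust trend, 12 with the most abundant transcript, 75 with exact zeros left out, and 50 to 251 with 1 library left out. The cause was not tested. The labels state no pairing of replicate numbers, and the ratio of Btg2 in Chd1KD to Control was 1.62 between the replicate 1 libraries and 1.60 between the replicate 2 libraries. The replicate 1 minus replicate 2 differences of both groups correlated across tested genes at r = 0.22, and with the replicate block 325 genes were called. The replicate block called 1 CCR4-NOT gene, 1 gene of the other decay steps, 1 upstream factor, 5 p53 targets, 4 G1 and S entry genes, 6 E2F targets and 5 early response genes. A CCR4-NOT gene, Cnot7, was also called (1) with a robust trend and with exact zeros left out. Without the filter the partners and the G1 and S entry genes had 0 calls. With 1 library left out the calls were 0 to 1 for CCR4-NOT and for upstream factors, 0 to 4 for p53 targets, 1 to 3 for G1 and S entry, 0 to 6 for E2F targets and 0 to 2 for early response genes.

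Of 96 list medians under the other settings 14 moved beyond the spread between libraries and 11 changed sign, the sign changes being in the lists of other decay steps, upstream factors and early response genes. Small fold changes of named genes turned with 1 library left out, over ranges of -0.0047 to 0.0445 for Cnot8, -0.152 to 0.0328 for Prmt1, -0.0550 to 0.0524 for Smad1, -0.0450 to 0.0763 for Foxo1, -0.162 to 0.106 for Egr1, -0.143 to 0.0139 for Dcn, -0.0852 to 0.0482 for Luc7l3, -0.16 to 0.00487 for Actb and -0.108 to 0.0534 for Tbp. Smad1 turned to 0.0127 under quantile normalization and Creb1 to -0.18 with its most abundant transcript. Each member rests on 1 transcript, so the choice of transcript could not move its value.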

Other observations

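Btg2 stood apart from the other members in how its replicates differed. Replicate 1 exceeded replicate 2 by at least 0.4 on the log2 scale in both groups in 21 of the 10209 tested genes and was lower by as much in both in 18, and Btg2 was 1 of them, as was the matricellular early response gene Ccn1. This threshold and the genes named here were chosen after the values were seen. The 21 also held Il11, Rgs16, Cd83, Rps27 and Trip10. Trip10 had 43.7 RPKM in Chd1KD and 47.8 RPKM in Control in replicate 1, and was listed at 0 in both replicate 2 libraries. Counting Btg2 itself, 48 genes reached its replicate difference in Chd1KD and 89 in Control. Btg3 did not share it, at -0.05 in Chd1KD and 0.07 in Control.

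The p53 targets leaned the same way between replicates as Btg2, which is itself a p53 target, though none differed by at least 0.4 in both groups at once. Replicate 1 was the higher library in both groups for 23 of 27 tested p53 targets (85.2%), 16 of 25 early response genes (64.0%) and 14 of 28 E2F targets, where this held for 36.7% of all tested genes. The median replicate difference of the p53 targets was 0.08 in Chd1KD and 0.22 in Control on the log2 scale, where all tested genes had 0.0052 in Chd1KD and 0.03 in Control. The labels do not say what replicate 1 or 2 of the groups share, and the cause was not tested.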
